A study of Mus musculus with 7 samples.

Results

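The CCN proteins and the thrombospondins are secreted glycoproteins of the matricellular kind: they sit in the extracellular matrix and act on cells through receptors rather than as structural fibres. The genes described here are the 9 of these families that were named for this account, Ccn1 to Ccn5 (older names Cyr61, Ctgf, Nov, Wisp1 and Wisp2) and Thbs1 to Thbs4, out of 37620 mouse genes in the count tables. They were chosen by name and with their values in these tumours known, namely their level in each tumour and the difference between the lines. Those values are therefore given as a description, without a test. All 9 were in the tables, and all 9 passed the filter on low counts, as did 16068 genes in all.

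The tumours grew in the brains of nude mice, which lack a thymus, after implantation of glioblastoma stem-like cells (GSC) that had been cultured for 10 to 15 passages. As source the labels give the subventricular zone, a niche of neural stem cells beside the ventricles, and as cell type tumour cells derived from neural stem cells (NSC). GSC1, with 4 tumours, carried lgT and Ras. GSC2, with 3 tumours, carried a short hairpin against p53 (shp53), was Nf1-/-, and carried CDK4. Each combination existed as 1 line, so a difference between the groups is a difference between lines, and the comparison asks how GSC1 tumours differed from GSC2 tumours. Tumour and host are both mouse, and a whole tumour was sequenced, so fewer cells of a type and less RNA per cell cannot be told apart.

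CCN proteins share a set of modules related to insulin-like growth factor binding proteins, von Willebrand factor, thrombospondin repeats and cystine-knot growth factors, through which they bind growth factors, heparan sulphate and integrins. Several of their genes respond to serum, TGF-beta, Wnt or YAP signals. Thrombospondin 1 and thrombospondin 2 form trimers that carry type I repeats and restrain blood vessel growth through CD36 and CD47. Thrombospondin 3 and thrombospondin 4 form pentamers without those repeats. In the brain, astrocytes secrete thrombospondins that promote synapse formation through the calcium channel subunit encoded by Cacna2d1.

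Libraries held 18643155 to 32643408 reads on genes, and levels are given in CPM, the read count scaled to a common library size after TMM adjustment. Sox2, a neural stem cell gene, ranged over 70.7 to 148 CPM in GSC1, against 130.0 to 199 CPM in GSC2. Of the same list, Nes ranged over 116 to 662 CPM in GSC1, against 119 to 344 CPM in GSC2, and Fabp7 over 84.1 to 240 against 139 to 337 CPM. The log2 fold change, GSC1 minus GSC2, was -0.66 for Sox2, 0.59 for Nes and -0.54 for Fabp7. Among genes related to the genotypes, Trp53 ranged over 77.2 to 236 CPM in GSC1 against 113 to 191 CPM in GSC2, Nf1 over 89.7 to 163 against 70.3 to 142 CPM, Cdk4 over 252 to 574 against 328 to 609 CPM, and Hras, 1 of the Ras genes, over 66.6 to 131 against 69.7 to 99.1 CPM; which Ras gene GSC1 carried is not known from the labels. Such totals include host reads and show neither a deleted exon nor a transgene of another species, so they do not check the labels. Markers of normal brain differed widely between tumours. A score for them, called the brain score and made of the mean log2 CPM of neuron and mature oligodendrocyte marker lists, came to 6.10, 4.85, 8.51 and 7.88 for the GSC1 tumours in replicate order, against 6.30, 7.68 and 7.66 for those of GSC2. Long transcripts were under-represented in GSC1 replicates 3 and 4 and GSC2 replicate 3, where the median log2 deviation of long transcripts (8000 bases or more), less that of short ones (2000 bases or fewer), was -0.40, -0.36 and -0.70, against 0.02 to 0.64 in the other tumours. Hoxb5, a hindbrain and spinal cord gene chosen after its values were seen, reached 209 and 49.6 CPM in GSC1 replicates 3 and 4. Elsewhere it was at most 0.0501 CPM. Mki67, a gene of dividing cells likewise named after its values were seen, was far lower in the libraries short of long transcripts. GSC1 replicate 3 had 3.18 CPM of it, GSC1 replicate 4 had 5.67 CPM and GSC2 replicate 3 had 8.82 CPM. The remaining tumours ranged over 84.8 to 231 CPM. Its relation to the members was not tested.

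Ccn1, Ccn4, Thbs1 and Thbs2 were higher in every GSC1 tumour than in any GSC2 tumour, and no member showed the opposite. Log2 fold changes were above 0 for 7 of 9 members, against 53.7% of the genes tested. The non-overlapping genes are 4 of 9 members, where every GSC1 tumour lay above every GSC2 tumour for 2.53% of the genes tested and below for 3.05%. Since the members were proposed with these values known, nothing is read from these shares. Over all genes edgeR's quasi-likelihood test called 0 genes between the lines (0%) after Benjamini-Hochberg adjustment, with 677 at an unadjusted p under 0.05 (4.21%). DESeq2 called 192 (1.19%), of which 104 were higher in GSC1 (0.647%), and limma-voom called 1 (0.00622%).

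The promoters of Ccn1 and Thbs2 are shown because, among these 4 genes, they are the ones with an entry in the RefSeq promoter table, which holds 4 of the 9 members. Each is the 250 bases before the annotated start, in build GRCm38.p6, on the minus strand (chr3:145649986-145650235 for Ccn1, chr17:14694263-14694512 for Thbs2). Capitals mark exact matches, on either strand, to CATTCC, the core of the site of the YAP partner TEAD, or to TATAAA, the TATA box.
Ccn1: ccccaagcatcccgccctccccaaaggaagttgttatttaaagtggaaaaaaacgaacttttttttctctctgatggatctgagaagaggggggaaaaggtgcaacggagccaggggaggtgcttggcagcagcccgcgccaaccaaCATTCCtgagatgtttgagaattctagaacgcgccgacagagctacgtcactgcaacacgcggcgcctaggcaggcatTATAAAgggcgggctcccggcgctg
Thbs2: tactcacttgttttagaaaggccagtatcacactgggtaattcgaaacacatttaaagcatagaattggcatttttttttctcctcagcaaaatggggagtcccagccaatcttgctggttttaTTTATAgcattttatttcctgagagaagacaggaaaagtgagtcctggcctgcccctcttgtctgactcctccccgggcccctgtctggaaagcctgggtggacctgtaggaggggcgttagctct
The Ccn1 window holds CATTCC on the strand shown, beginning 103 bases before the start, and TATAAA 25 bases before it. The Thbs2 window holds no CATTCC, and its TATAAA match is on the opposite strand. CATTCC occurs in 12.6% of 32851 promoter windows of this length and TATAAA in 12.4%. The AP-1 site TGACTCA (4.46% of windows) and the CArG box bound by SRF (1.47%) occur in neither, and the searched motifs do not overlap in these windows. Thbs3 and Thbs4, the other members with an entry, are not among the genes higher in every GSC1 tumour. The window of Thbs4 holds 2 CATTCC matches, beginning 197 and 192 bases before the start, and that of Thbs3 holds none.

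Replicates are given in order, 1 to 4 for GSC1 and 1 to 3 for GSC2. Ccn4 was the member with the widest gap between the lines. It encodes a Wnt-induced CCN protein that binds integrins and proteoglycans. It measured 29.6, 43.9, 33.4 and 14.7 CPM over the GSC1 replicates, against 4.58, 1.61 and 5.21 CPM over the GSC2 replicates. The lowest GSC1 tumour was 2.82 times the highest GSC2 tumour, and the means were 30.4 ± 12.1 CPM (SD, n = 4) and 3.80 ± 1.92 CPM (SD, n = 3). The log2 fold change, GSC1 minus GSC2, was 3.00 (SE 0.56), and between 2.63 and 3.32 with each tumour left out in turn. The counts behind the lowest values were small but not marginal, 46 to 104 reads in the GSC2 libraries. The 3 genes whose log2 CPM most resembled that of Ccn4 over the 7 tumours, among 11914 candidates with a mean of at least 5 CPM, were Lamtor3 (Pearson r = 0.988), Tpbg (r = 0.975) and Cnn2, an actin-binding calponin gene (r = 0.973). For this and every other member such genes are the highest of 11914 correlations over 7 tumours. Their r is therefore raised by selection, and no relation to the member was tested.

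Thbs1 and Thbs2, the trimeric thrombospondins, were both higher in GSC1. Thbs1, whose product can also activate latent TGF-beta, measured 46.2, 57.6, 62.9 and 53.0 CPM over the GSC1 replicates, against 27.1, 13.3 and 16.5 CPM over the GSC2 replicates. It was the steadiest member within GSC1, where the highest tumour was 1.36 times the lowest, and the means were 54.9 ± 7.09 and 18.9 ± 7.21 CPM. Its log2 fold change was 1.54 (SE 0.30), and 1.33 to 1.88 with each tumour left out.

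Thbs2, whose product binds matrix metalloproteases and passes them to the receptor encoded by Lrp1, measured 108, 102, 148 and 65.2 CPM over the GSC1 replicates, against 41.3, 45.9 and 44.7 CPM over the GSC2 replicates. The GSC1 tumours lay within a factor of 2.27 of each other and the GSC2 tumours within 1.11. The log2 fold change was 1.27 (SE 0.30), and 1.10 to 1.47 with each tumour left out. The genes most like Thbs2 over the 7 tumours were Phlda3 (r = 0.978), the melanoma cell adhesion molecule gene Mcam (r = 0.973) and Itgb3 (r = 0.969), which encodes an integrin subunit that binds thrombospondins and CCN proteins. Those most like Thbs1 were Nae1 (r = 0.971), Coq10b (r = 0.968) and Zdhhc3 (r = 0.962).

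Ccn1 showed the smallest difference of the 4. It is an immediate early gene whose product binds integrins and syndecans. It measured 74.4, 110.3, 101 and 69.7 CPM over the GSC1 replicates, against 56.3, 55.8 and 60.6 CPM over the GSC2 replicates. The lowest GSC1 tumour was only 1.15 times the highest GSC2 tumour, and the log2 fold change was 0.63 (SE 0.24). The gene most like it was Sdc2, for the heparan sulphate proteoglycan syndecan 2 (r = 0.957), which ranged over 208 to 310.3 CPM in GSC1, against 138 to 154 CPM in GSC2. Pcdh19 (r = 0.957) and Ppp2r5c (r = 0.951) followed. Across the 7 tumours Ccn1, Ccn4, Thbs1 and Thbs2 were correlated with each other at Pearson r = 0.81 to 0.93 in log2 CPM. The difference between the lines by which they were grouped enters these values.

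**Figure D1:**
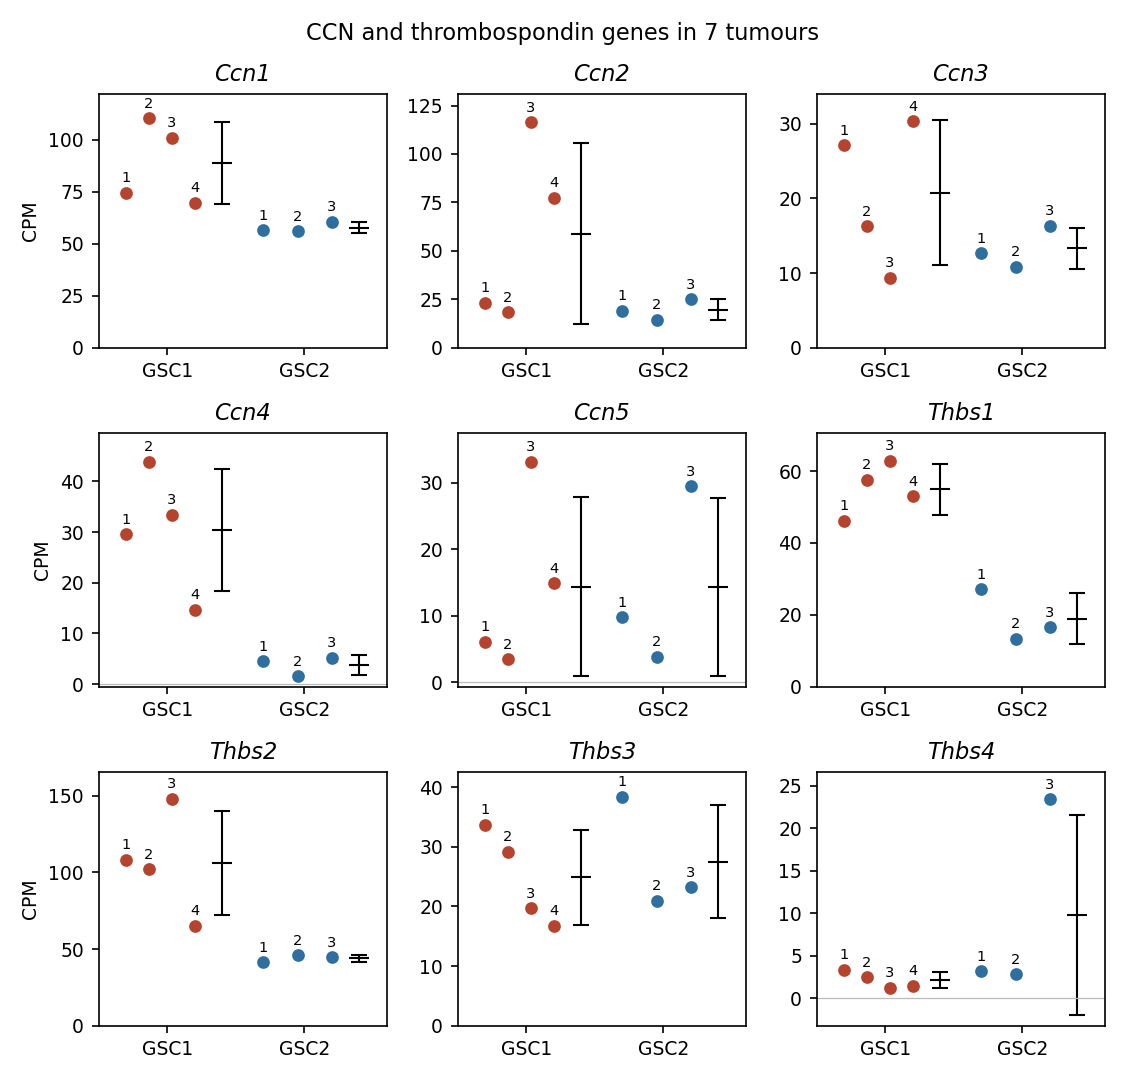
Level of each of the 9 genes in CPM (vertical axes, linear) in GSC1 and GSC2 tumours; points are tumours with their replicate numbers, and the bar beside them is the mean ± SD. Ccn1, Ccn4, Thbs1 and Thbs2 do not overlap between the lines, whereas Ccn2 is high in GSC1 replicates 3 and 4 and Thbs4 in GSC2 replicate 3.

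Ccn2, Ccn5 and Thbs4 varied widely among tumours of a line. Ccn2 encodes connective tissue growth factor, a target of TGF-beta and YAP signalling. It measured 23.2, 18.4, 116 and 77.4 CPM over the GSC1 replicates, against 19.1, 14.5 and 25.1 CPM over the GSC2 replicates. GSC1 replicates 3 and 4 were high, and the other GSC1 tumours lay within the GSC2 range. The log2 fold change was 1.59 (SE 0.69), and 0.32 (SE 0.29) without the 3 libraries short of long transcripts. Those libraries include GSC1 replicates 3 and 4. The fold change was 0.11 (SE 0.31) without GSC1 replicates 3 and 4 alone, a pair left out after the data were seen. With each library's length trend removed it was 1.56 (SE 0.65).

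Sums of the smooth muscle and fibroblast marker lists were highest in the same tumours as Ccn2, but not all genes of the lists were. The pericyte and smooth muscle list summed to 193, 222, 705 and 292 CPM in GSC1 replicates 1 to 4 and to 162, 251 and 185 CPM in GSC2 replicates 1 to 3. Tagln, a smooth muscle actin-binding gene, reached 291 and 70.1 CPM in GSC1 replicates 3 and 4, against 7.12 to 26.7 CPM in the other tumours, and Acta2, smooth muscle actin, reached 132 and 39.9 CPM there, against 5.30 to 15.2 CPM. Other genes of that list did not follow Ccn2: in GSC1 replicate 4 the pericyte genes Pdgfrb (41.3 CPM) and Notch3 (29.0 CPM) were at their lowest of the GSC1 tumours, and Rgs5, at 89.2 CPM, was below the 109 CPM of GSC2 replicate 2. Acta2 and Notch3 are named after their values were seen. The fibroblast and meninges list summed to 462, 426, 2282 and 1162 CPM in GSC1 and to 454, 469 and 613 CPM in GSC2, although its most abundant gene, the collagen gene Col3a1, was at 228 CPM in GSC1 replicate 4 and at 272 CPM in GSC1 replicate 1. All 10 genes of each list passed the filter on low counts, and their part in the level of Ccn2 was not tested. The gene most like Ccn2 in pattern was Polr3gl (r = 0.992), followed by Tfpi2, a protease inhibitor gene (r = 0.992), with 33.0 and 14.2 CPM in GSC1 replicates 3 and 4 against 0.701 to 1.22 CPM elsewhere, and by Fbxo25 (r = 0.988).

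Ccn5 encodes the CCN protein that lacks the carboxy-terminal cystine-knot module. It measured 6.14, 3.46, 33.2 and 14.9 CPM over the GSC1 replicates, against 9.82, 3.86 and 29.5 CPM over the GSC2 replicates. High and low tumours occurred in both lines, with GSC1 replicate 3 and GSC2 replicate 3 highest. The log2 fold change was 0.00 (SE 0.91), and its direction depended on single tumours, at -0.78 without GSC1 replicate 3 and 1.09 without GSC2 replicate 3. It was -0.21 without GSC2 replicate 1 and -0.45 without GSC2 replicate 2. The genes most like it were Elp3 (r = 0.990), Mrpl20 (r = 0.984) and Cops5 (r = 0.984), each of which ranged far less, Elp3 for example between 78.5 and 121 CPM.

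Thbs4, which encodes a pentameric thrombospondin made by astrocytes of subventricular origin after injury in mice, was near its lowest levels in 6 tumours. It measured 3.33, 2.46, 1.23 and 1.48 CPM over the GSC1 replicates, against 3.21, 2.84 and 23.5 CPM over the GSC2 replicates. GSC2 replicate 3 alone was high, with 468 reads against 31 to 115 in the other libraries. The log2 fold change was -2.20 (SE 0.82), and -0.50 (SE 0.55) without that tumour. It was -0.05 (SE 0.48) without the 3 libraries short of long transcripts, which include that tumour. With each library's length trend removed the fold change was -2.17 (SE 0.82). The gene most like Thbs4 was Cd9, a tetraspanin gene (r = 0.987), at 651 CPM in GSC2 replicate 3 and 302 to 399 CPM in the others, followed by Neurl3 (r = 0.963) and Cnpy3 (r = 0.960).

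Ccn3 and Thbs3 overlapped between the lines, with no single tumour far from the rest. Ccn3, whose product restrains growth in many cell types, measured 27.1, 16.2, 9.38 and 30.4 CPM over the GSC1 replicates, against 12.7, 10.9 and 16.3 CPM over the GSC2 replicates. The GSC2 tumours lay within the GSC1 range, with a log2 fold change of 0.64 (SE 0.43). The genes most like Ccn3 were Dhrs11 (r = 0.984), the procollagen processing enhancer gene Pcolce (r = 0.950) and Cndp2 (r = 0.941).

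Thbs3, the other pentameric thrombospondin gene, known mainly from skeletal tissue, measured 33.7, 29.2, 19.8 and 16.8 CPM over the GSC1 replicates, against 38.4, 21.0 and 23.3 CPM over the GSC2 replicates. The lines overlapped, and the log2 fold change of -0.15 (SE 0.35) was 0.17 without GSC2 replicate 1 and 0.03 without GSC1 replicate 4. Those most like Thbs3 were Ddx1 (r = 0.996), Ddx31 (r = 0.981) and Mrpl49 (r = 0.979). Exons of Thbs3 share 318 bases with Mtx1 on the opposite strand, and exons of Ccn2 share 665 bases with Gm15270, also on the opposite strand, in GENCODE's GRCm38 annotation. How the counting treated strand is not known from the sources used here. Mtx1 and Gm15270 were counted as genes of their own, so reads on the shared bases may have been lost from Thbs3 and Ccn2 as ambiguous. Exons of Thbs1 share 208 bases with Gm29233, also on the opposite strand. Gm29233 was not among the counted genes, so its reads on those bases may be included in Thbs1. Neither effect was tested.

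**Figure D2:**
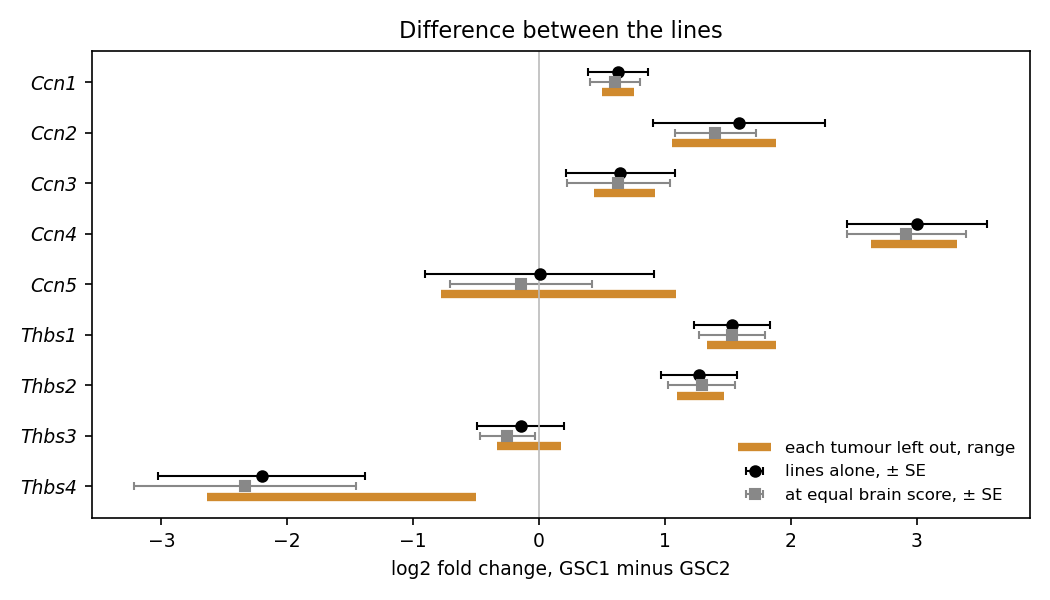
Log2 fold change of each gene, GSC1 minus GSC2 (horizontal axis), from the lines alone (black, ± SE) and at equal brain score (grey, ± SE), with the range over fits that leave out each tumour in turn (orange). Ccn4, Thbs1, Thbs2, Ccn1, Ccn2 and Ccn3 stay above 0 over that range, Ccn5 and Thbs3 cross it, and Thbs4 shrinks to -0.50.

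Held at equal brain score, the differences between the lines were close to those from the lines alone. The log2 fold change was 2.92 (SE 0.47) for Ccn4, 1.53 (SE 0.26) for Thbs1, 1.29 (SE 0.26) for Thbs2, 0.61 (SE 0.20) for Ccn1 and 1.40 (SE 0.32) for Ccn2. Over all genes that fit called 0.336% higher in GSC1 and 0.846% higher in GSC2; since this contrast chose the members, no test of them is given. With each library's length trend removed the fold changes of these genes moved little. They were 3.00 for Ccn4, 1.62 for Thbs1, 1.35 for Thbs2, 0.64 for Ccn1 and 1.56 for Ccn2. Without the 3 libraries short of long transcripts the first 4 of them were 3.59, 1.37, 1.28 and 0.72. That of Ccn2 was then 0.32, where both GSC1 tumours with high Ccn2 were left out.

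The brain score did not enter the choice of the members, although their level in each tumour was known. The slope on it was fitted with the line held. The slope uses those same levels, so its adjusted p-values are not an independent test of the members. Ccn2 and Ccn5 rose with the brain score and Thbs3 fell. That is 2 of 9 rising and 1 of 9 falling, where 24.3% of all genes tested rose and 23.8% fell, so the shares of 22.2% and 11.1% are near or under the background. Ccn2 rose by 0.66 log2 units per unit of score (SE 0.14, edgeR quasi-likelihood adjusted p = 0.00526), Ccn5 by 0.81 (SE 0.25, adjusted p = 0.0263), and Thbs3 had a slope of -0.28 (SE 0.09, adjusted p = 0.0345). The score spanned 3.66 units over the tumours.

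None of these 3 slopes held in every fit. The slope of Ccn2 was 0.00 (SE 0.21) without the 3 libraries short of long transcripts and 0.13 (SE 0.23) without GSC1 replicates 3 and 4, and it missed the threshold without GSC1 replicate 2 (edgeR adjusted p = 0.0683, range over its alternatives 1.04e-05 to 0.998). With each library's length trend removed the slope of Ccn2 was 0.61 (SE 0.13). GSC1 replicate 4 had 77.4 CPM of Ccn2, against 14.5 and 25.1 CPM in GSC2 replicates 2 and 3, whose scores were close to its own. The slope of Ccn5 missed the threshold without GSC1 replicate 1, 2 or 3 (adjusted p = 0.0737, 0.158 and 0.139, range over its alternatives 0.000744 to 0.901). It also missed it with limma-voom (adjusted p = 0.0598), with no filter on low counts (0.0542) and with the score taken from the neuron list alone (0.0768), and it passed in 10 of 19 alternatives. The slope of Thbs3 missed it without GSC1 replicate 1, 3 or 4 or GSC2 replicate 1 (0.0664, 0.0664, 0.0921 and 0.100, range 0.0200 to 0.619) and with no line term (0.0585), and passed in 11 of 19, while that of Ccn2 passed in 15 of 19. The slopes of the other 6 members did not pass, at -0.05 (SE 0.08) for Ccn1, -0.03 (SE 0.18) for Ccn3, -0.20 (SE 0.17) for Ccn4, -0.05 (SE 0.10) for Thbs1, 0.06 (SE 0.10) for Thbs2 and -0.14 (SE 0.36) for Thbs4.

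**Figure D3:**
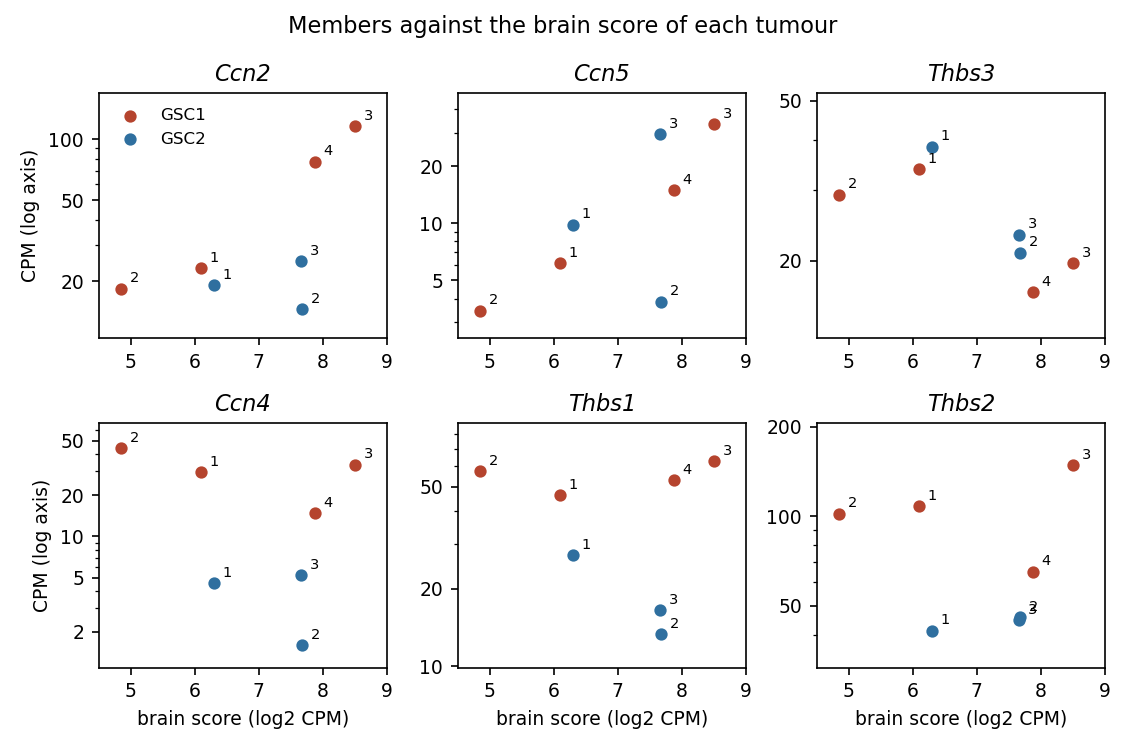
Level in CPM (vertical axes, logarithmic) against the brain score in log2 CPM (horizontal axes) for 6 genes; points are tumours with their replicate numbers, GSC1 in red and GSC2 in blue. Ccn2 and Ccn5 are highest in GSC1 replicate 3, the tumour with the highest score, while the GSC1 tumours of Ccn4, Thbs1 and Thbs2 lie above the GSC2 tumours along the whole score.

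Levels of different genes were compared per kilobase of the longest transcript, which ran from 1719 bases for Ccn5 to 5895 bases for Thbs2. On that scale Ccn1 was the most abundant member in both lines, at 44.0 ± 9.83 CPM per kb in GSC1 and 28.5 ± 1.29 CPM per kb in GSC2. In GSC1 it was followed by Ccn2 (23.6 ± 18.8 CPM per kb), Thbs2 (18.0 ± 5.77), Thbs1 (9.39 ± 1.21), Ccn5 (8.39 ± 7.81), Ccn3 (7.24 ± 3.38), Thbs3 (6.16 ± 1.97), Ccn4 (5.96 ± 2.37) and Thbs4 (0.665 ± 0.302). By their SDs the neighbours that stood apart in that order were Thbs2 from Thbs1 and Ccn4 from Thbs4, and the others overlapped. In GSC2 the order after Ccn1 was Ccn5 (8.37 ± 7.80 CPM per kb), Ccn2 (7.87 ± 2.13), Thbs2 (7.45 ± 0.405), Thbs3 (6.83 ± 2.35), Ccn3 (4.63 ± 0.972), Thbs1 (3.24 ± 1.23), Thbs4 (3.08 ± 3.69) and Ccn4 (0.746 ± 0.377). There Ccn1 stood apart from Ccn5 by their SDs, and every later pair of neighbours overlapped. Of the family genes outside the 9, Comp, for thrombospondin 5, peaked at 2.43 CPM in GSC1, against 1.02 CPM in GSC2, and Ccn6 did not exceed 0.0952 CPM in GSC1 or 0.0351 CPM in GSC2.

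**Figure D4:**
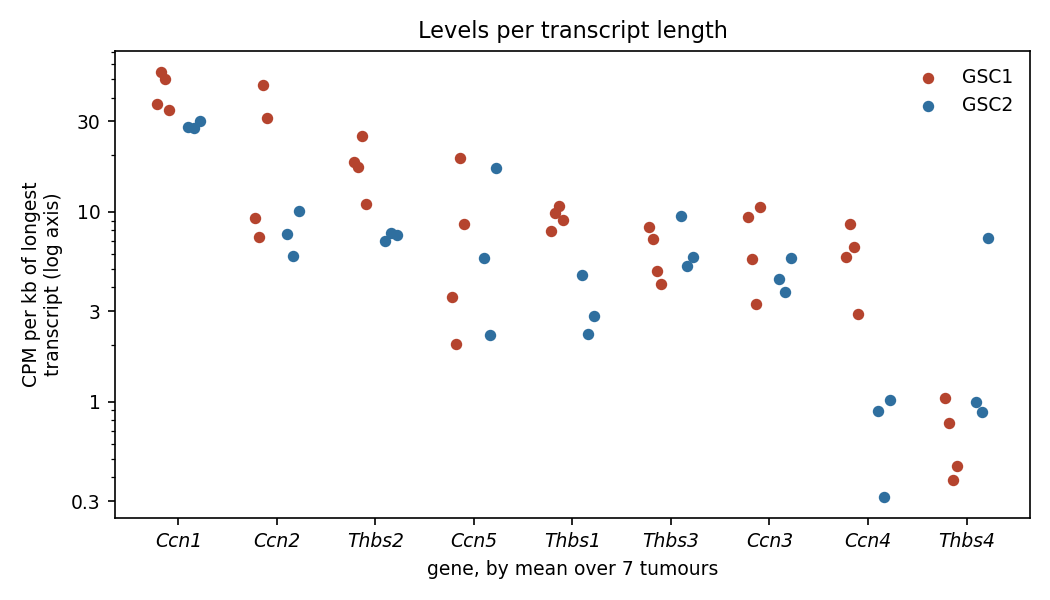
CPM per kilobase of the longest transcript (vertical axis, logarithmic) for the 9 genes ordered by their mean over the 7 tumours; points are tumours, GSC1 in red left of GSC2 in blue. Ccn1 is highest in both lines, and Ccn4 is lowest in GSC2 but not in GSC1.

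Other genes of the pathways that act on or through these proteins are given by lists. Between the lines edgeR called 0 genes of any list, as of all genes. Over all genes tested, 53.7% had a log2 fold change above 0, and 24.3% rose and 23.8% fell with the brain score. Every GSC1 tumour lay above every GSC2 tumour for 2.53% of them, and below for 3.05%. These shares apply to each list below, and no list was tested as a set. The falling calls, 3828, were 51 without the 3 libraries short of long transcripts and 0 without GSC1 replicates 3 and 4. Among 21 other YAP and TEAD targets the log2 fold change was positive in 11 and negative in 10, with a median of 0.00, against a median of 0.03 over all genes and 0.64 over the 9 members. Axl, a receptor tyrosine kinase gene of that list, ranged over 373 to 1028 CPM in GSC1, against 472 to 516 CPM in GSC2, Igfbp3 over 191 to 1535 CPM against 1115 to 1665 CPM, and Myof over 38.7 to 618 CPM against 73.0 to 291 CPM. Of the 21, 1 rose and 7 fell with the brain score, while Ccn2 rose and Ccn1 did not pass. Of 14 genes of the Hippo pathway, which restrains YAP, and the TEAD factors, 12 fell with the score and 0 rose, Wwtr1, the gene for the YAP relative TAZ, among those that fell (slope -0.44, SE 0.06, edgeR adjusted p = 0.00113). Their log2 fold change was positive in 4 and negative in 10 (median -0.09).

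Of 12 immediate early genes, which share serum control with Ccn1, 6 had positive and 6 negative fold changes (median 0.03), and 6 fell and 1 rose with the score. Egr1, which ranged over 45.2 to 304 CPM in GSC1, against 88.0 to 284 CPM in GSC2, fell by 0.79 log2 units per unit of score (SE 0.10, edgeR adjusted p = 0.000974). Klf6 ranged over 87.6 to 148 CPM against 103 to 120 CPM, and its slope of -0.09 (SE 0.07, edgeR adjusted p = 0.341) did not pass. Junb ranged over 68.4 to 146 CPM against 65.1 to 82.6 CPM, with a slope of -0.29 (SE 0.08, edgeR adjusted p = 0.0187). Of 11 Wnt and beta-catenin targets tested, 4 fold changes were positive and 7 negative (median -0.32), and 4 rose and 3 fell with the score. Tcf7 ranged over 10.4 to 50.8 CPM in GSC1, against 24.4 to 50.5 CPM in GSC2, Znrf3 over 10.7 to 24.3 CPM against 15.9 to 31.3 CPM, and Apcdd1 over 54.5 to 96.8 CPM against 57.5 to 71.9 CPM. These 3 overlapped between the lines, and 1 gene of the list, Axin2, named after its values were seen, was lower in every GSC1 tumour, over 4.74 to 13.05 CPM in GSC1 against 13.08 to 21.0 CPM in GSC2. All 6 TGF-beta response genes had a positive fold change (median 0.55), with Pmepa1 ranging over 181 to 461 CPM in GSC1, against 140 to 255 CPM in GSC2, Ski over 117 to 226 CPM against 127 to 173 CPM, and Skil over 70.1 to 206 CPM against 78.7 to 130.0 CPM, and 4 fell with the score and 0 rose.

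Receptors of the CCN proteins and thrombospondins differed widely in level from gene to gene. Of 15 tested, 11 had a positive and 4 a negative fold change (median 0.21), and 1 rose and 6 fell with the score. Lrp1 ranged over 342 to 1990.3 CPM in GSC1, against 207 to 922 CPM in GSC2, Itgb1 over 587 to 1633 CPM against 627 to 922 CPM, and Sdc4 over 348 to 381 CPM against 286 to 438 CPM. Cd47 ranged over 107 to 136 CPM in GSC1, against 115 to 127 CPM in GSC2, and Cd36 over 1.23 to 3.10 CPM against 3.12 to 7.17 CPM, the lowest GSC2 tumour just above the highest GSC1 tumour. Itgb3 ranged over 6.57 to 16.1 CPM in GSC1, against 4.38 to 6.31 CPM in GSC2, with no overlap, and Cacna2d1 over 38.6 to 87.7 CPM against 19.1 to 51.8 CPM. Cd36, Cd47, Itgb3 and Cacna2d1 are named as receptors of the members and not by the rule on abundance. Among 15 other matricellular genes 13 had a positive fold change (median 0.23), and 7 rose and 2 fell with the score. Over all genes tested 53.7% had a fold change above 0, 24.3% rose and 23.8% fell. Sparc ranged over 1391 to 2031 CPM in GSC1, against 1291 to 1705 CPM in GSC2, Spp1 over 706 to 2209 CPM against 918 to 1558 CPM, and Sparcl1, an astrocyte and vessel gene, over 147 to 1754 CPM against 310 to 1178 CPM.

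Markers of cell types that can make CCN proteins or thrombospondins were summed by list. Over all genes tested, 53.7% had a fold change above 0, and 2.53% were higher in every GSC1 tumour than in any GSC2 tumour. The endothelial list summed to 302 to 356 CPM in GSC1 and 215 to 315 CPM in GSC2, and 9 of its 10 genes had a positive fold change (median 0.30). Of the 10 pericyte and smooth muscle genes, 1, the receptor gene Pdgfrb, was higher in every GSC1 tumour, over 41.3 to 69.5 CPM in GSC1 against 21.3 to 38.3 CPM in GSC2, whereas the more abundant Rgs5 overlapped, over 61.8 to 149 CPM against 60.2 to 109 CPM. The fold change was positive in 6 of 10 genes of the pericyte and smooth muscle list (median 0.41) and in 8 of 10 of the fibroblast and meninges list (median 0.82). The neuron list summed to 560 to 4462 CPM in GSC1 and 940.4 to 2426 CPM in GSC2, the mature oligodendrocyte list to 653 to 18130.0 and 2658 to 9409 CPM, and the astrocyte list to 1933 to 14178 and 2742 to 7281 CPM. The microglia and macrophage list summed to 982 to 1954 CPM in GSC1 and 1519 to 2329 CPM in GSC2. The choroid plexus list summed to 5.80, 4.30, 45.0 and 9086 CPM in GSC1 replicates 1 to 4, against 2158 to 5024 CPM in GSC2. The fold change was positive in 7 of 11 neuron genes (median 0.57), 6 of 12 mature oligodendrocyte genes (median 0.00) and 6 of 8 astrocyte genes (median 0.51). It was positive in 1 of 10 microglia and macrophage genes (median -0.40) and 2 of 8 choroid plexus genes (median -0.14). The 5 neural stem cell genes summed to 431 to 950 CPM in GSC1 and 682 to 744 CPM in GSC2, and 1 of them had a positive fold change (median -0.54). The platelet list, of interest because platelets store thrombospondin 1, summed to 0.406 to 1.99 CPM in GSC1 and 0.763 to 3.06 CPM in GSC2. Of its 4 genes only 1, Pf4, passed the filter on low counts. Pf4 was detected throughout, over 0.290 to 1.38 CPM in GSC1 and 0.407 to 2.51 CPM in GSC2. Gp9, which did not pass the filter, was at 0 in 2 GSC1 tumours and 1 GSC2 tumour. The part of any of these cell types in the levels of the members was not tested.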

How the data were processed

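RNA of 4 GSC1 and 3 GSC2 tumours was isolated with RNeasy columns and made into NEBNext Ultra libraries, per the labels' protocols; groups and replicate numbers come from the titles, and the series calls the tumours independent. Each deposited table holds raw counts by Ensembl gene. The submitters' processing notes name TopHat2 2.0.11 and HTSeq, and mm9 and dm3 with no role; the authors' HTSeq version and strandedness are unknown from the sources used here. The 5 summary lines per table were left out (6.19 to 14.2% of reads on no gene, 12.8 to 21.0% without a unique position, 0.357 to 0.460% ambiguous). Replicates of a line differed beyond sampling noise, with chi-square per degree of freedom from 66.5 upward.

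GENCODE M21 (GRCm38) gave symbols for 32897 of 37620 identifiers (the other 4723 carried 0.485% of counts), as well as transcript lengths and exon overlaps; its gene positions are not printed, since the build differs from the one in the notes. P-values measure the spread between tumours.

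Tests used edgeR 4.0.16 under R 4.3.3 (TMM, filterByExpr, robust quasi-likelihood, Benjamini-Hochberg over 16068 genes, threshold 0.05). An SE is the log2 estimate over the root of F. The brain score uses log2 CPM with a prior count of 2 and is measured in the same tumours. Alternatives were DESeq2 1.42.0, limma-voom (limma 3.58.1), RLE factors, dropping the filter, requiring 5 CPM on average, a replicate block, a loess length trend as offset, other scores or covariates, and tumours left out. The steps were tested on simulated data.

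The text names the 9 members and the 3 genes most correlated with each member. Genes of a list are named from its 3 most abundant tested genes, and exceptions are stated. Of the Hippo list and the fibroblast and meninges list only the most abundant gene is named. No gene is named of the endothelial, neuron, mature oligodendrocyte, astrocyte, microglia and choroid plexus lists. The members, lists and rules were chosen with earlier results of these data known.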

Additional observations from a re-analysis of the deposited data

How the results depend on the processing

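Between the lines the count of genes called, 0, was 1 with no filter, 192 in DESeq2, 1 in limma-voom, 190 with the brain score as a covariate, 55 without the 3 libraries short of long transcripts and 44 without GSC1 replicates 3 and 4 together, an alternative added after seeing the data. It was 0 with each tumour left out in turn. The genes rising with the score, 3905, numbered 2066 to 4178 with each tumour left out (2066 without GSC1 replicate 2), 936 without the 3 libraries and 0 without GSC1 replicates 3 and 4. The genes falling, 3828, numbered 2124 to 4092 (2155 without GSC1 replicate 2, 2124 without GSC1 replicate 3), 51 and 0 in the same fits. The last 2 fits leave 1 and 2 residual degrees of freedom. The slope of Ccn5 turned to -0.21 without the 3 libraries; the cause was not tested.

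Deviations of same-numbered tumours were correlated at r = 0.58, -0.31 and 0.41, which is mixed, so the numbers were not taken to pair the tumours. With the replicate number as a block 0 genes were called between the lines, 1147 rose and 212 fell with the score, the slopes of Ccn2, Ccn5 and Thbs3 did not pass, and the log2 fold change of Ccn3 was 0.30 and that of Thbs3 0.02. GSC1 replicate 2 resembled GSC2 replicate 1 more (r = 0.70) than its own number.

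The fold changes of Ccn1, Ccn2, Ccn3, Ccn4, Thbs1, Thbs2 and Thbs4 had the same sign in all 17 alternatives, but those of Ccn2 and Thbs4 came close to 0, at 0.32 (SE 0.29) and -0.05 (SE 0.48) without the 3 libraries, and that of Ccn2 was 0.11 (SE 0.31) without GSC1 replicates 3 and 4. The fold changes of Ccn4 ranged from 2.63 to 3.59. The lowest count of any member was 31 reads, and an effect of depth was not tested.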
